A study of Mus musculus with 6 samples.

Results

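The 9 genes described here, Slc1a5, Slc38a2, Gls2, Glul, Glud1, Got1, Got2, Gpt2 and Aldh18a1, carry glutamine into cells or convert glutamine, glutamate and aspartate, and they were chosen by name for that role at a time when earlier results of these data were known. All 9 were among the 22310 genes of the deposited expression table, and all 9 had a mean value of at least 100 there, so none was lost to a filter on low values. The question was whether metastasis-initiating cells (MICs) of a mouse mammary tumor differ from the other tumor cells in the expression of these genes. Tumor cells from MMTV-PyMT mice spent a night in culture before flow sorting, and the RNA of the sorted cells was sequenced. The Lin−CD24+CD90+ cells are the MICs and the Lin−CD24+CD90− cells the non-MICs, and each population gave 3 libraries. Both populations had the label WT for genotype and MMTV-PyMT for the line, were grown with insulin and hEGF in 2% FBS, and received no other treatment. The polyoma middle T antigen is driven in this model by the mouse mammary tumor virus promoter, which is active in mammary epithelium. The labels give no age, for which the study's methods give a range, and the methods name FVB/N as the background of the line. The study counts the 3 libraries of a population as independent experiments or tumors, and the labels do not say whether animals were pooled.

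Glutamine is taken up through sodium-coupled carriers and exchangers of the cell membrane, deamidated to glutamate in mitochondria by glutaminase, and made again from glutamate and ammonia by glutamine synthetase. Glutamate gives 2-oxoglutarate to the tricarboxylic acid cycle through glutamate dehydrogenase or through transaminases, which pass its amino group to oxaloacetate or pyruvate and so make aspartate or alanine, and a separate branch turns glutamate into proline. Proliferating epithelial and tumor cells are known to draw on glutamine for nitrogen and on aspartate for nucleotides.

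Each value is a read count scaled by the authors so that every library sums to about 35000000. The MIC libraries held 32458499, 31467281 and 51759769 recovered reads, in the order of their numbers, against 33069114, 33126717 and 49904738 in the non-MIC libraries. Libraries of the same number deviated alike from the means of their populations, so the numbers were treated as 3 pairs, and a pair difference is log2(value + 1) in the MIC library minus the same in the non-MIC library. The sorting gate was visible in the reads. Thy1, which encodes CD90, had 1399, 271 and 1117 reads in the MIC libraries against 16, 20 and 18 in the non-MIC libraries, so Thy1 was low in every non-MIC library and lowest among MICs in replicate 2.

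The libraries stood apart by their number before any gene of glutamine metabolism was considered. The summed value of 5 luminal markers, most of it Krt8 and Krt18, was 589774, 211658 and 448366 in MIC libraries 1, 2 and 3, against 697460, 277193 and 423011 in the non-MIC libraries. All 6 basal or myoepithelial markers were present, and their sum was 313091, 7969 and 34302 in MICs against 78077, 6526 and 22089 in non-MICs. Acta2 was the most abundant of them on average and gave most of the sum in pair 1, whereas Krt14 was the most abundant in both libraries of pair 3 and in non-MIC library 2. Acta2 was higher in MICs by 2.25, 2.38 and 2.64 in pairs 1, 2 and 3, Myh11 by 2.39, 2.25 and 3.09, Cnn1 by 2.50, 2.16 and 2.03, and Krt5 by 3.5, 2.0 and 1.2. These 4 genes passed limma with the replicate block (adjusted p from 3.12e-05 for Acta2 to 0.0121 for Krt5) and not without it. Krt14 had mixed differences of 0.50, -0.90 and 0.11, and so did Oxtr. The sum of 7 fibroblast markers was 2154, 670 and 2003 in MICs against 1107, 739 and 585 in non-MICs. Col1a2 was the most abundant of them in pair 1, with 1450 and 367, and Col1a1 in the 4 other libraries. Col1a2 was higher in MICs by 1.98, 0.58 and 2.65 and Pdgfra by 0.34, 0.10 and 0.46. Dcn and Lum were higher by 1.1, 0.3 and 3.2 and by 0.77, 1.69 and 1.22, with at most 81 and 14 reads in a library. Col1a1 had mixed differences of -0.19, -0.62 and 1.65, Col3a1 of -0.36, -0.33 and 2.67, and Pdgfrb of -0.15, 0.17 and 1.87. For leukocytes, 6 of 7 markers were in the table, with sums of 204, 1990 and 402 in MICs against 226, 1200 and 467 in non-MICs. Lyz2 made up most of the sum in pair 2, with 1635 and 834, while Ptprc, which defines leukocytes and encodes the depleted CD45, had at most 14 reads in a library. Endothelial markers summed to between 15.9 and 51.8 per library. The 2 of 4 adipocyte markers present, Fabp4 and Plin1, summed to between 2.03 and 10.0 per library. In bulk RNA, fewer cells of a type and less RNA per cell cannot be told apart.

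No member passed the test between the populations. With limma on log2(value + 1), adjusted over all 22310 genes at 0.05, 0 of 9 members and 0% of all genes were called, and at an unadjusted p under 0.05 the counts were 0 of 9 members and 1.44% of all genes. A block for the replicate number left the calls at 0 of 9, against 0.13% of all genes, and 0 of 9 against 11.2% at an unadjusted p under 0.05. edgeR on the recovered reads with the block called 0 of 9 members and 1.41% of all genes, with 0 of 9 and 11.7% at an unadjusted p under 0.05. edgeR and DESeq2 without the block, and DESeq2 with it, also called 0 of 9, beside 0, 1 and 133 of all 22310 genes. The adjusted p of every member in limma without the block was 0.999992, and with the block it lay between 0.503 for Slc1a5 and 1.00 for Gpt2. Of the 9 log2 fold changes, 2 were above 0 and 7 below, with a median of -0.07, beside a median of -0.04 over all genes and of -0.08 for the mean pair difference over the 11173 genes with a mean value of at least 100.

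For most members, as for most genes at their level, values ranged more across the 3 replicate numbers than they differed between the populations. A range over 3 means tends to exceed a difference of 2 means even without structure, so the counts that follow only describe the values. The mean log2 value of a pair ranged across the 3 pairs by more than the mean pair difference in 7 of 9 members, against 85.3% of the 11173 genes with a mean value of at least 100. This range was 1.16 for Glul, 1.12 for Gpt2, 1.04 for Slc38a2 and 0.96 for Slc1a5, and it was smallest for Got2, at 0.11. Glud1 and Got2 were the 2 exceptions, with mean pair differences of 0.25 and -0.14 against ranges of 0.20 and 0.11.

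**Figure D1:**
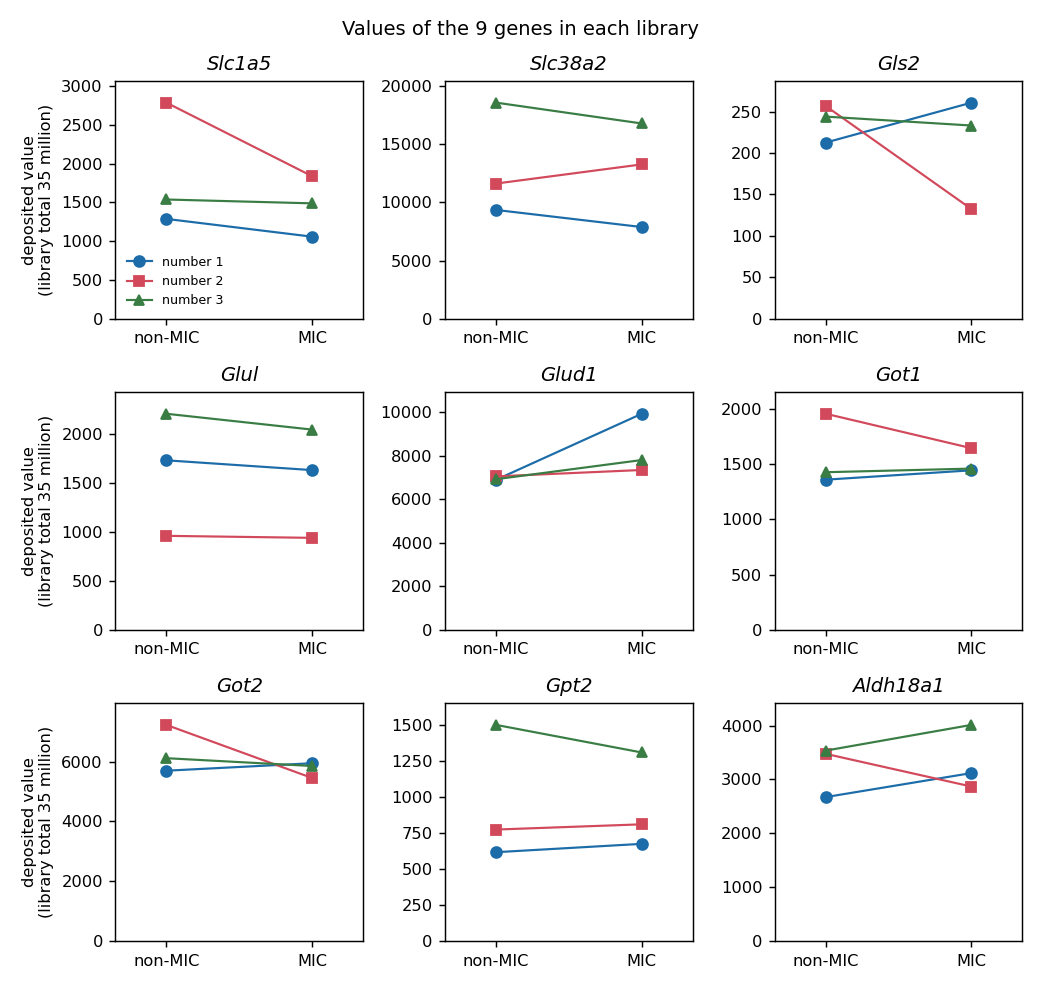
Deposited values (vertical axes, from 0, scaled to a library total of 35000000) of the 9 genes in the 3 non-MIC and 3 MIC libraries, with lines joining libraries of the same number. Slc38a2, Gpt2, Glul and Slc1a5 are spread by number, whereas the 3 non-MIC values of Glud1 lie between 6900 and 7055, below its 3 MIC values.

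Slc1a5 encodes ASCT2, a sodium-dependent exchanger of neutral amino acids that imports glutamine, and lies on chr7:16781340-16798274 (GRCm38, plus strand, ENSMUSG00000001918). Its value was 1058, 1839 and 1488 in MIC libraries 1, 2 and 3, against 1287, 2787 and 1537 in the non-MIC libraries. The pair 2 libraries were the highest in each population, the pair 1 libraries the lowest, and the populations overlapped. The pair differences were -0.28, -0.60 and -0.05, and the 95% interval for counting error in pair 3, from -0.13 to 0.04, included 0. The limma log2 fold change was -0.31 (SE 0.35, n = 3 per population, 95% interval -1.12 to 0.50), and the SE with the replicate block was 0.17. With pair 2 left out and the block kept, the estimate was -0.17. Leaving out a single library of that pair moved it in opposite directions, to 0.02 without non-MIC replicate 2 and to -0.49 without MIC replicate 2, and without MIC replicate 1 it was -0.10.

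Slc38a2 encodes SNAT2, a sodium-coupled carrier of small neutral amino acids including glutamine (chr15:96687392-96699730, minus strand, ENSMUSG00000022462). The values were 7882, 13274 and 16795 in MICs against 9353, 11626 and 18588 in non-MICs, in the order of replicates 1, 2 and 3. Pair 3 was high and pair 1 low in both populations, which overlapped, with MIC library 1 below and non-MIC library 3 above all others. The pair differences of -0.25, 0.19 and -0.15 were each outside their counting error, and pair 2 went against the others. The log2 fold change was -0.07 (SE 0.36, n = 3 per population), and it was 0.24 without MIC replicate 1 and 0.21 without non-MIC replicate 3. Slc38a1, which encodes the related carrier SNAT1, had pair differences of -0.55, -0.21 and -0.07, and Slc7a5, the LAT1 exchanger, which can trade intracellular glutamine for leucine, of -0.14, -0.47 and 0.17. Slc7a11, the cystine-glutamate exchanger, had the widest range across pairs among the partner genes named here, 1.61, with 294 and 153 in MIC and non-MIC replicate 1 and 602 and 705 in replicate 2.

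Gls2 encodes the liver-type glutaminase (chr10:128194457-128210004, plus strand, ENSMUSG00000044005) and had the lowest level of the set. Its value was 261, 132 and 233 in MIC libraries 1, 2 and 3, against 213, 257 and 244 in the non-MIC libraries. MIC replicate 2 was the lowest library, with 119 reads against 243 in its non-MIC partner, and the 5 other libraries lay between 213 and 261. The pair differences were 0.29, -0.95 and -0.06, and counting error allowed -1.28 to -0.63 in pair 2. The log2 fold change was -0.24 (SE 0.37, n = 3 per population), and it was 0.06 without MIC replicate 2. Spryd4 overlaps Gls2 on the opposite strand and was the more abundant, at 540 to 796. Whether the counting used strand is not given in the sources used here, so reads of the 2 genes may not be fully told apart.

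Glul encodes glutamine synthetase, which makes glutamine from glutamate and ammonia (chr1:153899944-153909723, plus strand, ENSMUSG00000026473). The values were 1633, 940 and 2047 in MICs against 1733, 960 and 2209 in non-MICs. Both pair 2 libraries were low and both pair 3 libraries high, so that the partners within a pair were far closer than the pairs were to each other. The pair differences were -0.09, -0.03 and -0.11, and in pairs 1 and 2 the counting intervals included 0. The log2 fold change was -0.08 (SE 0.40, n = 3 per population), and with the block the SE was 0.16 and the 95% interval -0.42 to 0.27. With 1 library left out it ran from -0.42 (without non-MIC replicate 2) to 0.24 (without MIC replicate 2), and its sign turned in 3 settings. Glul was also the member whose pair differences lay closest to the median gene, at 0.00, 0.01 and -0.06 relative to it. The pair with low Glul was the pair with high Lyz2 and with the lowest luminal and myoepithelial sums, and the part of cell composition in this was not tested. Teddm2 overlaps Glul on the opposite strand, with values of at most 8.90.

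Glud1 encodes mitochondrial glutamate dehydrogenase, which interconverts glutamate and 2-oxoglutarate (chr14:34310727-34345265, plus strand, ENSMUSG00000021794). Its value was 9934, 7349 and 7806 in MIC libraries 1, 2 and 3, against 6900, 7055 and 6926 in the non-MIC libraries. The non-MIC libraries were nearly level, with an SD of 0.02 on the log2 scale, and all 3 MIC libraries lay above them, MIC replicate 1 by the most. Glud1 was the only member whose populations did not overlap, 1 of 9 beside 6.24% of all genes and 809 of the 11173 with a mean value of at least 100. With TMM rescaling its populations did overlap, leaving 0 of 9 beside 6.65% of all genes, and its difference in pair 2 became -0.05. The pair differences with the deposited scaling were 0.53, 0.06 and 0.17, each outside its counting error, which allowed 0.01 to 0.11 in pair 2. The limma log2 fold change of 0.25 (SE 0.19, n = 3 per population, 95% interval -0.19 to 0.70) did not pass the threshold, nor did it with the replicate block (SE 0.17, 95% interval -0.12 to 0.62). It was above 0 in each of 22 alternative settings, from 0.12 to 0.35. These settings refit the same 6 libraries or a part of them, so they are not independent, and Got2 kept its sign in all 22 as well. Of the 6 basal or myoepithelial markers, 4 were higher in the MIC library of each pair and Krt14 and Oxtr were mixed, their sum differed by 2.00, 0.29 and 0.63, and the part of myoepithelial transcripts in the Glud1 values was not tested.

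Got1 encodes the cytosolic aspartate transaminase (chr19:43499752-43524605, minus strand, ENSMUSG00000025190) and Got2 the mitochondrial one (chr8:95864134-95888547, minus strand, ENSMUSG00000031672), the transaminases of the malate-aspartate shuttle. Got1 had values of 1444, 1644 and 1459 in MICs against 1359, 1956 and 1427 in non-MICs. Got2 had values of 5949, 5457 and 5857 in MICs against 5699, 7233 and 6118 in non-MICs. Non-MIC replicate 2 was the highest library for each of them and the populations overlapped. The pair differences were 0.09, -0.25 and 0.03 for Got1 and 0.06, -0.41 and -0.06 for Got2, so pair 2 was the largest in size for each and was negative. The log2 fold change was -0.04 (SE 0.22, n = 3 per population) for Got1, which was 0.12 without non-MIC replicate 2, and -0.14 (SE 0.18, n = 3 per population) for Got2. Got2 had no direction without pair 2, where its estimate with the block was -0.00056, and it was -0.04 without non-MIC replicate 2.

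Got1 and Got2 had the most similar profiles of any 2 members, with a root mean square difference of 0.13 between their centred log2 values over the 6 libraries. Got2 was 1.75 to 2.26 times the level of Got1 per kilobase in every library. A processed copy, Got2-ps1, had a value of at most 33.8 in a library.

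Most other carriers and the dehydrogenases of the shuttle also had pair differences of mixed sign. Slc25a12 and Slc25a13, the mitochondrial aspartate-glutamate carriers, had pair differences of 0.31, -0.19 and -0.11 and of 0.27, -0.01 and -0.09. Mdh1, the cytosolic malate dehydrogenase, had 0.28, 0.08 and -0.10, and the mitochondrial Mdh2 had 0.09, -0.40 and 0.00. Slc25a11, the oxoglutarate-malate carrier, had 0.16, -0.26 and -0.03. Slc25a22, a mitochondrial glutamate carrier, was lower in MICs in each pair with the deposited scaling, by -0.72, -0.38 and -0.04. Its difference in pair 3 turned to 0.03 with TMM rescaling and to 0.04 with quantile normalization.

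Gpt2 encodes the mitochondrial alanine transaminase, which joins glutamate and pyruvate to 2-oxoglutarate and alanine (chr8:85492576-85527560, plus strand, ENSMUSG00000031700). The values were 675, 811 and 1310 in MICs against 617, 774 and 1502 in non-MICs. Pair 3 was high in both populations and each MIC library stood close to its partner, with pair differences of 0.13, 0.07 and -0.20. Only the difference of pair 3 lay outside its counting error. The log2 fold change was 0.00 (SE 0.40, n = 3 per population), with a 95% interval of -0.38 to 0.37 under the replicate block, and its sign had no fixed direction across settings, from -0.28 to 0.37.

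Gpt2 and Slc38a2 shared the order of the pairs, lowest in pair 1 and highest in pair 3, and their centred profiles differed by a root mean square of 0.18, the next closest match after Got1 and Got2. Of 14 partner genes, 6 had this order, namely Asns, Slc7a5, Slc38a1, Slc25a12, Psat1 and Atf4, and 3 of 9 members had it. Over the wider list of 73 genes described further on it was 12, or 16.4%, level with the 16.9% of the 11173 genes with a mean value of at least 100, and the order was looked for after the values were seen. Asns, the asparagine synthetase that spends aspartate and glutamine, had values of 3347, 4420 and 5687 in MICs against 2985, 4887 and 5390 in non-MICs. Atf4, the transcription factor of the amino acid response, had 9872, 11747 and 13661 in MICs against 8613, 12632 and 14338 in non-MICs. In both genes the libraries went with their number, and the populations overlapped. Psat1, the phosphoserine transaminase, which uses glutamate, was higher in the MIC library of each pair, by 0.67, 0.27 and 0.11, with a log2 fold change of 0.35 that did not pass the test with the block (adjusted p = 0.465).

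Aldh18a1 encodes delta-1-pyrroline-5-carboxylate synthase, the entry of glutamate into proline synthesis (chr19:40550257-40588463, minus strand, ENSMUSG00000025007). Its value was 3120, 2869 and 4015 in MICs against 2673, 3476 and 3538 in non-MICs. MIC replicate 3 was the highest library and non-MIC replicate 1 the lowest, and the populations overlapped. The pair differences of 0.22, -0.28 and 0.18 were each outside their counting error, and pair 2 again went against the others. The log2 fold change was 0.04 (SE 0.22, n = 3 per population), and it was -0.10 without MIC replicate 3. Next in the branch, Pycr1, which reduces the product to proline, had pair differences of -0.36, -0.43 and -0.02, and Oat, which links ornithine to the same intermediate, 0.82, -0.15 and 0.22. Prodh, which begins proline breakdown, was lower in the MIC library of each pair, with differences of -0.62, -0.49 and -0.15.

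**Figure D2:**
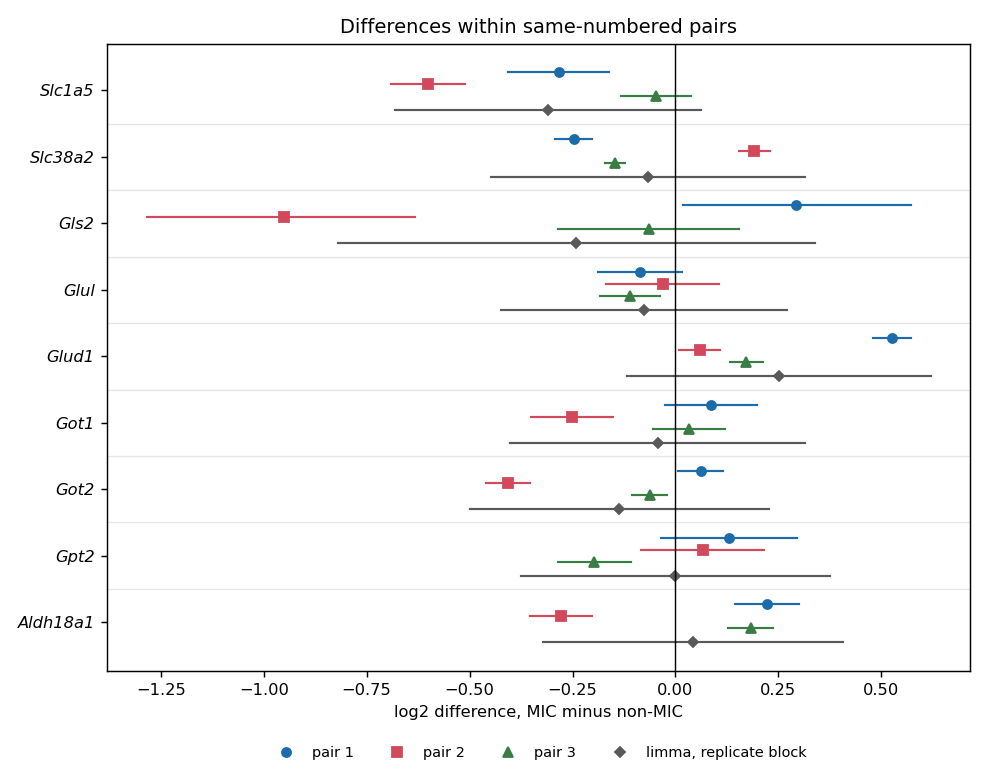
Log2 difference of MIC minus non-MIC (horizontal axis) in each same-numbered pair of the 9 genes (vertical axis), with 95% exact intervals for counting error, and the limma estimate with the replicate block and its 95% interval. Every limma interval includes 0, and the pairs differ from each other by more than their counting error in most genes, as in Gls2 with 0.29, -0.95 and -0.06.

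Counting the members by pair gave no common direction. MICs were higher for 6 of 9 members in pair 1, for 3 of 9 in pair 2 and for 3 of 9 in pair 3, beside 10091, 11943 and 7986 of all 22310 genes and 4851, 5208 and 3902 of the 11173 with a mean value of at least 100. These counts moved with the scaling. With TMM rescaling they were 6, 1 and 6 of 9, beside 10492, 9824 and 11396 of 22310 genes and 5213, 4222 and 6048 of the 11173. With quantile normalization they were 7, 3 and 5 of 9, beside 11017, 9996 and 10312 of 22310 genes and 5453, 4970 and 5543 of the 11173. Glud1 alone was higher in all 3 pairs, 1 of 9 beside 12.5% of all genes and 1469 of the same 11173, and Slc1a5 and Glul were lower in all 3, 2 of 9 beside 18.8% of all genes and 3181 of the 11173. The median gene was itself not at 0. Among the 11173 genes with a mean value of at least 100, the median pair difference was -0.09, -0.04 and -0.05 with the deposited scaling, and rescaling by TMM factors made it -0.05, -0.15 and 0.02, a shift in pair 2 that moved Glud1 there from 0.06 to -0.05. Relative to the median gene the difference of Glud1 was 0.61, 0.10 and 0.23, so that 1 of 9 members was higher in all 3 pairs, beside 20.8% of all genes, and 0 of 9 lower, beside 13.8%. Among the 11173 genes these shares were level, at 2244 higher and 2236 lower. On that measure Slc1a5 was at -0.20, -0.56 and 0.01.

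Between genes, levels were compared per kilobase of merged exons. The order of mean levels was Glud1 at 1820, Slc38a2 at 1462, Got2 at 1255, Aldh18a1 at 806, Got1 at 609.7, Glul at 478, Slc1a5 at 399, Gpt2 at 168 and Gls2 at 64.3. Ranges over the 6 libraries separated only 2 neighbours in this order, Got2 (lowest 1131) from Aldh18a1 (highest 986) and Gpt2 (lowest 109) from Gls2 (highest 75.1). The ranges of all other neighbours overlapped, yet within each of the 6 libraries Aldh18a1 was also above Got1 and Slc1a5 above Gpt2. The 4 remaining neighbours changed places between libraries. Glud1 led in the libraries of pairs 1 and 2, and Slc38a2 in those of pair 3, with 1900 against 1854 in the MIC library and 2103 against 1645 in the non-MIC library.

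**Figure D3:**
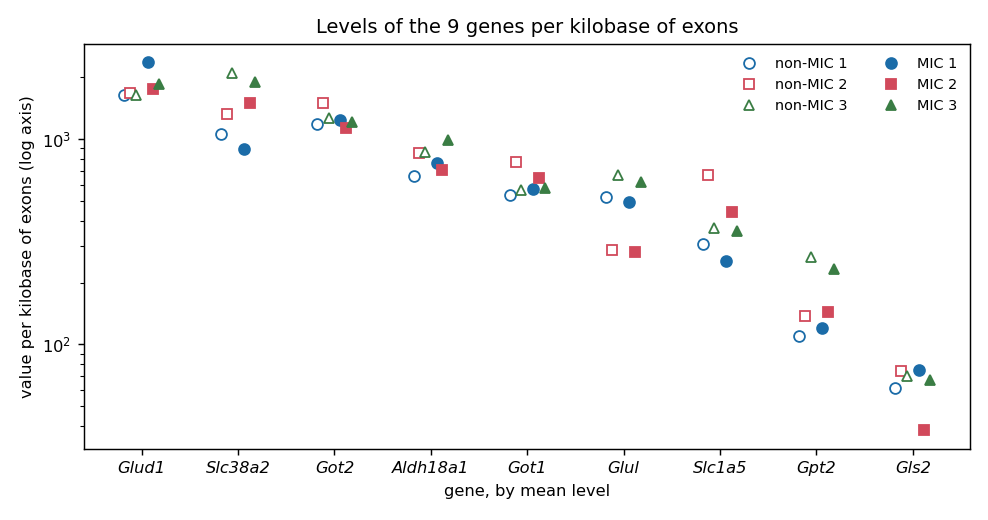
Value per kilobase of exons (vertical axis, log scale) of the 9 genes, ordered by mean level (horizontal axis), in 3 non-MIC (open) and 3 MIC (filled) libraries. Means run from 1820 for Glud1 to 64.3 for Gls2, and the ranges of most neighbours overlap.

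The gene with the nearest profile was found for each member among 11172 other genes with a mean value of at least 100, as the smallest root mean square difference of centred log2 values over the 6 libraries. Gusb was nearest to Got1 (0.03), Calu to Glud1 (0.03), Golm1 to Aldh18a1 (0.04), Psmd4 to Got2 (0.04) and Pdp2 to Glul (0.04). Sirt1 was nearest to Slc38a2 (0.06), Dagla to Slc1a5 (0.06), Gdpd1 to Gpt2 (0.09) and Slc5a6 to Gls2 (0.09). Calu had values of 28937, 22093 and 23675 in MICs against 20190, 22031 and 20482 in non-MICs, and like Glud1 it was highest in MIC replicate 1. No nearest gene was another member.

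In the wider pathway, 73 of 77 listed genes of glutamine, glutamate, proline and aspartate metabolism were in the table, the members included. Slc38a5, Tat, Aadat and Gad2 had no row. limma called 0 of 73 without the block and 0 of 73 with it, beside 0 and 29 of all 22310 genes. At an unadjusted p under 0.05 the counts were 0 of 73 without the block, beside 1.44% of all genes, and 7 of 73 with it. The 7 of 73, 3 with higher and 4 with lower values in MICs, compare with 11.2% of all genes and 1901 of the 11173 with a mean value of at least 100, a level that 59 of the 73 reach. The median log2 fold change was -0.06, beside -0.04 over all genes, and 30 of 73 were above 0, beside 10229 of 22310 and 4564 of 11173. In all 3 pairs 9 of 73 were higher and 19 lower, beside 12.5% and 18.8% of all genes and 1469 and 3181 of the 11173. With TMM rescaling these became 5 and 15, beside 3284 and 3667 of 22310 genes and 1913 and 2580 of the 11173, and relative to the median gene 12 and 12, beside 20.8% and 13.8% of all genes and 2244 and 2236 of the 11173. By pair, MICs were higher for 45 of 73 genes in pair 1 and for 23 of 73 in each of pairs 2 and 3, beside 10091, 11943 and 7986 of 22310 genes and 4851, 5208 and 3902 of the 11173. Relative to the median gene they were higher for 50, 27 and 35 of 73, beside 11852, 13254 and 11262 of 22310.

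Bcat1 and Abat were the 2 of 73 genes that edgeR with the block called, beside 1.41% of all genes and 258 of the 11173, both higher in MICs. DESeq2 with the block called 0 of 73, beside 133 of all 22310 genes and 119 of the 11173. Bcat1 encodes the cytosolic branched-chain transaminase, which makes glutamate from 2-oxoglutarate. It had values of 130, 38.9 and 256 in MICs against 19.1, 38.0 and 123 in non-MICs. Its libraries were level in pair 2, where TMM rescaling turned the sign to -0.07, and its pair differences were 2.71, 0.03 and 1.04 (edgeR with the block, adjusted p = 0.012). Abat encodes GABA transaminase, which passes the amino group of GABA to 2-oxoglutarate. It had values of 499, 164 and 50.04 in MICs against 140, 82.4 and 42.8 in non-MICs, and its pair differences were 1.83, 0.98 and 0.22 (edgeR with the block, adjusted p = 0.0192). Neither passed limma with the block, where the adjusted p was 0.417 for each. For both genes pair 1 held the largest difference. The fibroblast sum differed by 0.96, -0.14 and 1.78 in the 3 pairs. In pair 1 the difference came mostly from Col1a2, with Dcn, Lum and Pdgfra also higher in MICs and Col1a1, Col3a1 and Pdgfrb lower. The basal or myoepithelial sum differed by 2.00, 0.29 and 0.63, and the part of either cell type in the values of Bcat1 and Abat was not tested.

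Among genes of this list with the same direction in all 3 pairs and a mean value of at least 100, the 3 with the largest mean difference upward were Bcat1, Abat and Slc7a6, and the 3 downward were Aldh5a1, Adssl1 and Prodh. Slc7a6, a subunit of the y+LAT2 exchanger of cationic and neutral amino acids, was higher in MICs by 0.74, 0.14 and 0.20. Aldh5a1, succinate semialdehyde dehydrogenase of the GABA branch, had values of 279, 438 and 441 in MICs against 494, 529 and 609 in non-MICs, so every MIC library lay below every non-MIC library. Its log2 fold change was -0.52 (adjusted p = 0.419 in limma with the block). The populations did not overlap for 2 of 73 genes, Glud1 and Aldh5a1, beside 6.24% of all genes and 809 of the 11173. Adssl1, an adenylosuccinate synthase that uses aspartate, had pair differences of -0.58, -0.38 and -0.53. Myc, a transcription factor known to raise glutamine metabolism genes, had -0.63, -0.22 and -0.08.

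Promoter windows from RefSeq (GRCm38.p6), 250 bases before to 50 after the gene start in RefSeq, were matched by symbol for 7 of 9 members, all but Slc1a5 and Gls2. That start can differ from the gene positions given above, as for Got2, whose window lies further into the gene as placed above. Each was searched on both strands for TGATGNAAN, the core of the composite element bound by ATF4, and for CACGTG, the E-box of Myc and related factors, and no match of either overlapped a match of the other in these windows. Of 32851 windows of this length, 3.95% held TGATGNAAN and 7.15% held CACGTG. Among members, Got1 held TGATGNAAN, on its opposite strand and 103 bases before the gene start, and Aldh18a1 held CACGTG, 59 bases before the start. Windows of the 2 pairs of members with the closest profiles, Got1 with Got2 and Slc38a2 with Gpt2, follow, 5′ to 3′ on the strand of the gene, in lower case with the motif in capitals.
Got1, chr19:43524556-43524855, minus strand: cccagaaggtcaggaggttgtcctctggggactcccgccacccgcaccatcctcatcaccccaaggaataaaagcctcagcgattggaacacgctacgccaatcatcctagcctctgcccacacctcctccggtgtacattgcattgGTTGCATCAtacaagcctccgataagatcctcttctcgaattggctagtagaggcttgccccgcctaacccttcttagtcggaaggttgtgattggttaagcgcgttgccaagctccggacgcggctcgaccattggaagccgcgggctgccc
Got2, chr8:95888352-95888651, minus strand: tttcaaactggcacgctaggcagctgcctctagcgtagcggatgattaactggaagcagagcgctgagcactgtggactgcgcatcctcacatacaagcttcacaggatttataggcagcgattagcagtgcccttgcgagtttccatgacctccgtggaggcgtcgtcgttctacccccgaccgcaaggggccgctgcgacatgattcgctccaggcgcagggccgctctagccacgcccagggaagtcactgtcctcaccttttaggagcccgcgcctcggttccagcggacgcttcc
Slc38a2, chr15:96699679-96699978, minus strand: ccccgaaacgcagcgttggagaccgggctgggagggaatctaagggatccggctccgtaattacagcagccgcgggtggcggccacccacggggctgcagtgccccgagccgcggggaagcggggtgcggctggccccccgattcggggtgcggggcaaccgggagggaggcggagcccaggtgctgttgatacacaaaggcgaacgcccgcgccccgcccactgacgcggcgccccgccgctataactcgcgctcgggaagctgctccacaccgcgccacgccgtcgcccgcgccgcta
Gpt2, chr8:85492326-85492625, plus strand: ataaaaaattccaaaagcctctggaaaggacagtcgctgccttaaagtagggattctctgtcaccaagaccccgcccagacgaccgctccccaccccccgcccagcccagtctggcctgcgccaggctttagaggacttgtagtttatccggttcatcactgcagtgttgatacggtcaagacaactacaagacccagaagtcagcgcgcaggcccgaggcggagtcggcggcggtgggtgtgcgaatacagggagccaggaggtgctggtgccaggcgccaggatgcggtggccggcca
The windows of Got2, Slc38a2 and Gpt2 hold neither motif, and a match or its lack is a description of the letters alone.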

How the data were processed

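The authors sequenced stranded mRNA libraries (TruSeq, NextSeq500) and deposited gene counts scaled to a common total, treated here as a signal. The paper's methods name Bowtie2 and samtools, whereas the submitters' processing notes name STAR and HTSeq, all against GRCm38/mm10 with no version. After division by the value of 1 read in each library, 99.97% to 100% of the values came within 0.01 of whole reads, and the libraries held 31467281 to 51759769 reads. Reads were not collapsed by molecular identifiers, so the 95% exact binomial intervals of pair differences cover counting error only. Symbols and positions came from GENCODE vM21 (GRCm38), which held 22161 of 22310 identifiers.

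Populations were compared with limma 3.58.1 in R 4.3.3 (lmFit, eBayes with a trend) on log2(value + 1), a scale that understates changes of low genes, with no block and a Benjamini-Hochberg threshold of 0.05 over all genes. Both populations carry replicate numbers 1 to 3 in the labels, and the deviations of 2 libraries from their population means correlated across genes by 0.573, 0.668 and 0.746 for numbers 1, 2 and 3 when the number was shared, so the numbers were taken to pair the libraries. edgeR 4.0.16 (quasi-likelihood) and DESeq2 1.42.0 took the recovered reads. Other alternatives were a filter at the median, pseudocounts of 0.1 and 10, TMM and quantile normalization, no trend, and each library or pair left out. TMM and quantile normalization with the block, the overlap of populations under either normalization, and differences relative to the median gene, were chosen after seeing the data. The fits were tested on simulated data whose changes were all larger than the fold changes of the members, so changes as small as those were not covered.

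The members and lists were chosen with earlier results of these data known, and the lists were compiled by hand. Named genes are the members, listed pathway genes past a threshold in limma or edgeR, the 3 listed genes in each direction with the largest mean difference among those with the same sign in all pairs and a mean value of at least 100, 14 textbook partners, the nearest profile of each member, and Slc25a11, Slc25a22, Cad and Pfas, added after the values were seen. Some genes that this rule or the marker lists cover are not reported here. Tables were handled with pandas 2.3.3, numpy 2.4.6 and scipy 1.17.1 in Python 3.11.15.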

Additional observations from a re-analysis of the deposited data

How the results depend on the processing

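No member passed the threshold in any of 198 fold changes over 22 alternative settings, the smallest adjusted p being 0.463, and the replicate block changed no call of a member. The sign turned in 26 of them, in 7 of 9 members, with none for Glud1. Got2 did not turn but was at -0.00056 with the block and pair 2 left out. Gpt2, with a log2 fold change of 0.00, was at 0.00032 with TMM rescaling (with and without the block), 0.052 with quantile normalization (with and without the block), 0.029 with DESeq2 and the block, and 0.098 with the block and pair 3 left out. Got1 turned to 0.023 with quantile normalization (with and without the block) and to 0.060 with the block and pair 2 left out. With the block, Gls2 was 0.11 without pair 2, Slc38a2 0.022 without pair 1, and Aldh18a1 -0.047 without pair 1 and -0.027 without pair 3. With single libraries left out, the ranges were -0.54 to 0.019 for Slc1a5, -0.31 to 0.24 for Slc38a2, -0.43 to 0.057 for Gls2, -0.42 to 0.24 for Glul, -0.14 to 0.12 for Got1, -0.28 to 0.37 for Gpt2 and -0.099 to 0.14 for Aldh18a1. The cause of these turns was not tested.

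Over all genes, 0 were called without the block by limma and by edgeR (295 at an unadjusted p under 0.05) and 1 by DESeq2. With the replicate block limma called 29, edgeR 315 and DESeq2 133, and limma called 32 with TMM rescaling, 12 with quantile normalization, 11 without pair 1, 59 without pair 2 and 0 without pair 3. Of the pathway genes, edgeR with the block called 2 and DESeq2 with the block 0. The count of members with the same direction in all pairs, 3, became 1 with TMM rescaling (Glul), 1 with quantile normalization (Glud1) and 1 relative to the median gene (Glud1). Of all 22310 genes, 3284 were higher and 3667 lower in all pairs with TMM rescaling, and 3335 and 3670 with quantile normalization. Relative to the median gene these shares were 20.8% and 13.8%. The members whose populations did not overlap, 1 (Glud1), became 0 with TMM rescaling and stayed 1 with quantile normalization. The share of all genes was 6.24% with the deposited scaling, 6.65% with TMM rescaling and 5.87% with quantile normalization. Over 2 paired differences in place of 3 the count of members with the same direction was 5 without pair 1, 6 without pair 2 and 4 without pair 3, since fewer pairs have to share a sign. The share of all genes over 2 pairs is not given here, so these counts only describe the members. Depth limits Gls2 most, with 119 reads in its lowest library.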

Other observations

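The 9 glutamine amidotransferase genes of the wider list, which use the amide nitrogen of glutamine, held 3 fold changes above 0 and 6 below, beside 10229 of all 22310 genes and 4564 of the 11173 with a mean value of at least 100 above 0. Cad, which begins pyrimidine synthesis with glutamine and then aspartate, had values of 5702, 5819 and 6077 in MICs against 8089, 11232 and 5846 in non-MICs, so its MIC libraries were nearly level and non-MIC libraries 1 and 2 were high, while pair 3 went the other way. Pfas, of purine synthesis, had pair differences of -0.72, -0.23 and -0.24, and was below the median gene in each pair. Neither passed the threshold in limma with the replicate block (adjusted p = 0.424 and 0.425), and both were named after their values were seen.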
